A study of Oryza sativa with 200 samples.

Results

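Rice lines whose leaves held transcripts of Os03g0299700 were compared with lines whose leaves held almost none. All lines come from JAM2, a MAGIC population whose parents were the rice varieties Akidawara, Iwaidawara, Tachiharuka and Toyomeki. In a MAGIC population, descendants of crosses among several parents are selfed until each line is nearly uniform. A set of 100 lines was sequenced in 2022 and again in 2023. The lines were chosen by the measured level of Os03g0299700 in CPM (counts of a gene scaled to the total of its library). A line was taken as on where this level reached 2 CPM in both years, and as off where it stayed under 0.2 CPM in both. This gave 16 on lines and 81 off lines, while 3 lines fell between the limits. By its identifier Os03g0299700 is a gene of chromosome 3 with locus number 299700 in build IRGSP-1.0, and the tables used here give it no name or function. Locus numbers rise along a chromosome, so they stand below for the order of the genes and not for distances in bases. Genes of chromosome 3 within 100000 locus numbers of Os03g0299700 are called the window.

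On and off lines received the same treatment and are told apart by that transcript alone. Each line stood as 33 plants in 1 plot without replication, under chemical fertilizer with 56 kg of nitrogen per ha. A leaf was taken 6 weeks after transplanting between 9 and 11 in the morning, on 1 July 2022 (F5) and 29 June 2023 (F6). The on lines are the same 16 in both years and the off lines the same 81, each with 1 library a year, so a year repeats the lines and not the choice of lines. Genotypes were not used here, and the groups are groups of transcript level. In leaf RNA, fewer cells of a type and less RNA per cell cannot be told apart.

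In an inbred line, long stretches of a chromosome descend from a single parent, and neighbouring genes therefore tend to carry that parent's versions. A transcript that some parental versions of a gene produce and others do not splits such lines into a group with it and a group without it. Genes beside it that also differ between the parents then tend to split the same lines, until recombination separates them.

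The label of the contrast names chromosome 3, but the calls did not gather around Os03g0299700. Genes that split the lines as Os03g0299700 did lay mainly on chromosome 1, and in the window no gene was called in both years. The contrast is therefore named here by the gene that chose the lines and not by a place on chromosome 3. The place of Os03g0299700 in the genomes of the parents was not tested, nor was what sets its level.

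Totals ran from 6265446 to 28589727 counts for on lines and from 3254834 to 37774023 for off lines in 2022. In 2023 they ran from 5573603 to 15117039 and from 3842364 to 16881699. Leaf markers were abundant in both groups. GLO1 (Os03g0786100), a glycolate oxidase of photorespiration, had medians of 2868 CPM in on and 2995 CPM in off lines in 2022 and of 2696 and 2750 CPM in 2023. None of 3 tested leaf markers and none of 3 tested markers of root, panicle or dividing tissue passed in either year by edgeR or DESeq2 (1 of the 6 in each year at an unadjusted p under 0.05). Over all tested genes 0.707% and 1.9% were called and 8.4% and 14.5% had an unadjusted p under 0.05. The 0 calls among these 6 genes thus lie near the background. Of 6 leaf markers listed, only the 3 whose names were kept were counted. In 2022, 11 of 16 on lines and 38 of 81 off lines stood in columns 1 to 50 of the table, and in 2023 this held for 7 and 41.

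Os03g0299700 itself chose the lines, so its levels are given as a description. In on lines it ranged from 9.90 to 93.9 CPM in 2022 (median 55.3, mean 49.8 ± 24.3, SD, n = 16) and from 16.5 to 122.7 CPM in 2023 (median 81.2, mean 76.5 ± 31.6, SD, n = 16). In off lines the highest value was 0.198 CPM in 2022 and 0.176 CPM in 2023, and 76 of 81 off lines had 0 counts in 2022 and 78 had 0 in 2023. A wide empty range thus lay between the groups in both years. The on line nearest to the limit was J2_334 with 9.90 and 16.5 CPM.

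The lines just outside were of 2 kinds. J2_221 had 0.270 CPM and J2_273 had 0.209 CPM in 2022, both had 0 counts in 2023, and they missed the off limit only narrowly. J2_314 had 13.8 CPM in 2022 and 0 in 2023, and so changed sides between the years.

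Within the on lines the level was graded, and 15 of the 16 lines were higher in 2023 than in 2022.

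**Figure D1:**
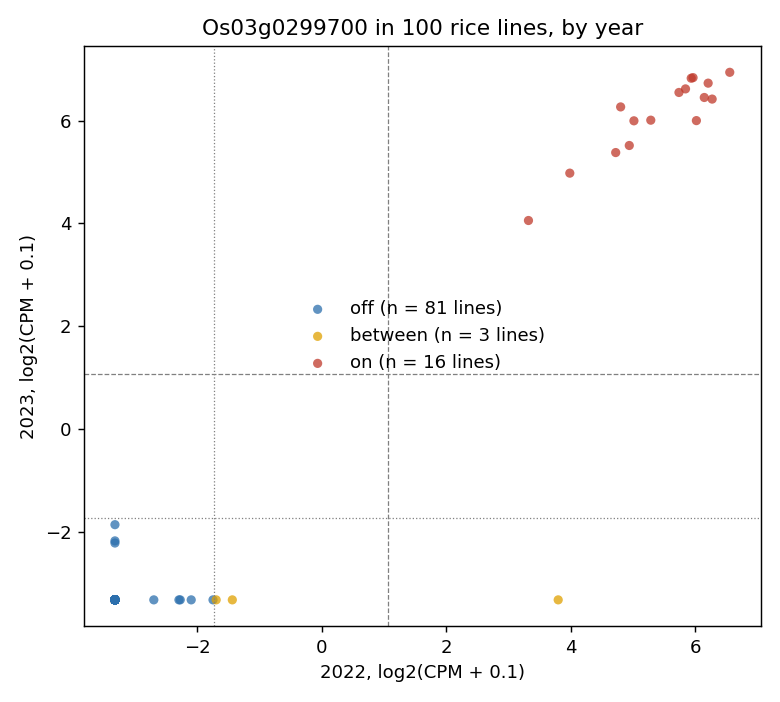
Level of Os03g0299700 in each of the 100 lines, 2022 on the horizontal and 2023 on the vertical axis, as log2(CPM + 0.1). Points are lines, dashed lines mark 2 CPM and dotted lines 0.2 CPM; the 16 on lines stand apart at the upper right, most of the 81 off lines coincide at 0, and J2_314 is the yellow point at the lower right.

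The first comparison asked whether the neighbourhood of Os03g0299700 differed between on and off lines. In 2022, 0 of 800 tested genes of the window were called by edgeR's quasi-likelihood test, which required a p under 0.05 after Benjamini-Hochberg (BH) adjustment, against a background of 0.707% of all 19227 tested genes. At an unadjusted p under 0.05 the window held 64 genes, or 8%, against 8.4% of all tested genes. DESeq2 also called 0 in the window. The smallest adjusted p in the window in 2022 was 0.124 (edgeR, BH). In 2023, 11 of 833 window genes were called, or 1.32%, against a background of 1.9% of 20188 genes, and none of the 11 differed by 2-fold or more. No gene of the 798 tested in both years was called in both, by edgeR or by DESeq2, and 28 had an unadjusted p under 0.05 in both. How many of all tested genes did so is not given here. In 2023 alone the window held 131 genes at an unadjusted p under 0.05, or 15.7%, against 14.5% of all tested genes. The window was thus not richer in edgeR calls after adjustment than the table as a whole in either year.

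Of the 4 tested genes on each side (Os03g0298700, Os03g0298800, Os03g0298900 and Os03g0299600 before it, Os03g0299800, Os03g0299900, Os03g0300000 and Os03g0300100 after it) none passed in either year by edgeR or DESeq2, with 0 at an unadjusted p under 0.05 in 2022 and 2 in 2023. Over all tested genes 8.4% and 14.5% had an unadjusted p under 0.05 and 0.707% and 1.9% were called, so that 0 calls among 8 genes lies near the background. Os03g0299600, the nearest before it, had 81.8 to 152.1 CPM in on lines (median 102.1) and 62.4 to 170.9 CPM in off lines (median 109.2) in 2022. In 2023 it had 51.8 to 118.4 CPM (median 74.1) against 50.5 to 137.1 CPM (median 82.8). The groups overlapped over nearly their whole range, and the log2 change was -0.08 (SE 0.0661) in 2022 and -0.24 (SE 0.0758, edgeR BH-adjusted p = 0.0806) in 2023. Os03g0299800, the nearest after it, had medians of 4.31 CPM in on and 4.55 CPM in off lines in 2022 and of 3.39 and 3.02 CPM in 2023.

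By the limits given below for such genes, 2 other window genes were present in some lines and absent in others. Neither split the lines as Os03g0299700 did. Os03g0223301 was at 2 CPM or more in some lines and under 0.2 CPM in others in both years, and it had the state of Os03g0299700 in 66.0% of classified lines in 2022 and 68.0% in 2023. In 2022 it ranged from 0 to 41.3 CPM in on lines and from 0 to 48.1 CPM in off lines, with 9 of 16 on lines and 57 of 81 off lines at 0. Both groups thus held lines with and without it. The other such gene, Os03g0247300, had the state of Os03g0299700 in 52.0% of classified lines in 2022 and 50% in 2023.

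Across all genes, 136 of 19227 were called in 2022, of which 70 were higher (0.364%) and 66 lower (0.343%) in on lines. In 2023, 383 of 20188 were called, of which 164 were higher (0.812%) and 219 lower (1.08%). In both years and in the same direction 114 of 19142 genes were called (0.596%), 50 higher (0.261%) and 64 lower (0.334%) in on lines, and 51 of them (0.266%) differed by at least 2-fold in both years. No gene was called in opposite directions. Of the 114 genes, 103 lay on chromosome 1, which makes 3.80% of its 2713 genes tested in both years. The other 11 were spread over 8 chromosomes. The fit was also run with 3 principal components of genes outside chromosome 3 that were present in some lines and absent in others. These genes include those of chromosome 1 that split the lines as Os03g0299700 did. With these components chromosome 1 fell from 113 calls to 48 in 2022 and from 170 to 60 in 2023. Within columns 1 to 50 it held 71 and 88 calls.

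On chromosome 1 the calls were gathered in a single stretch of locus numbers. The first gene called in both years was Os01g0275300 and the last Os01g0599550. Between locus numbers 320000 and 519999, 88 genes, or 41.3% of those tested there, were called in both years, 39 higher and 49 lower in on lines. By bins of 20000 locus numbers, the share was 7.32% from 280000, 20% from 300000 and 16.3% from 320000. It was 57.8% from 340000, 53.3% from 360000 and 68.2% from 380000, and then 27.8% from 500000 and 4.55% from 520000. From 100000 to 259999 and from 600000 to the end of the chromosome, 0% of genes were called in both years in every bin. Calls in both directions lay side by side there, and 103 genes between 320000 and 519999 passed in neither year.

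**Figure D2:**
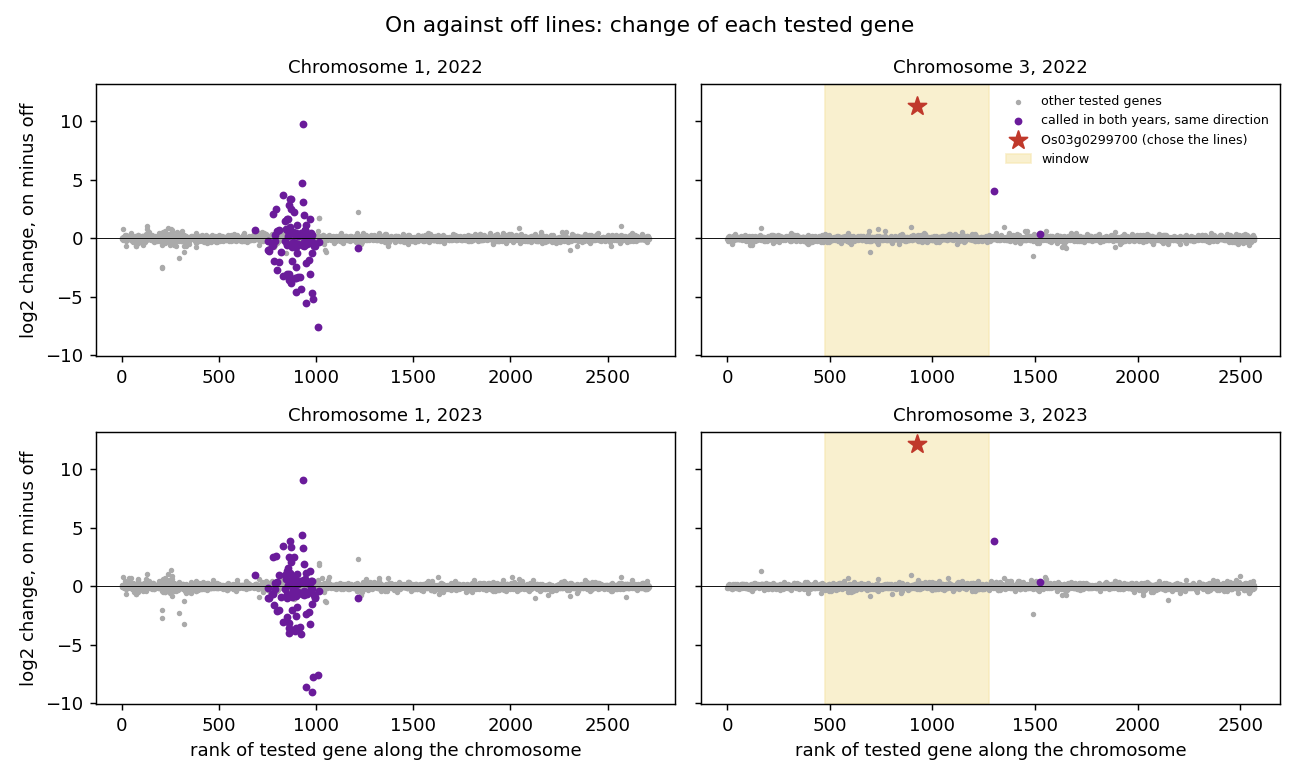
Log2 change of each tested gene, on minus off lines, against its rank along chromosome 1 (left) and chromosome 3 (right) in 2022 (top) and 2023 (bottom). Purple points are genes called in both years in the same direction, the star is Os03g0299700 and the shaded band the window; the purple points crowd into a single stretch of chromosome 1, while the window holds none.

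Genes that are present in some lines and absent in others allow a comparison line by line. Such a gene was required to reach 2 CPM in 10 or more lines of a year and to stay under 0.2 CPM in another 10 or more, with no more than 10 lines in between. Apart from Os03g0299700, 222 genes met this in both years. Of these, 12 (5.41%) had the same or the opposite state as Os03g0299700 in at least 90% of classified lines in both years, and 11 of the 12 were genes of chromosome 1. The remaining gene was Os03g0409600, which lies 109900 locus numbers away on chromosome 3 and so just outside the window. At these limits the highest agreement outside chromosomes 1 and 3 was 76.5% and the median 62.1%. Of the 12 genes, 2 had the same state as Os03g0299700. The other 10 had the opposite state, being absent in most on lines and present in most off lines. These numbers hold for the limits of 2 and 0.2 CPM, and results with looser limits are given below. The genes that next most often had the state of Os03g0299700 were Os01g0598900 (82.5% in 2022 and 82.0% in 2023), Os06g0551000 (77.3% and 76.5%) and Os12g0103500 (76.3% and 76.8%), and for none of these was a change called in both years. Joint absence counts as agreement, so a gene absent from most lines agrees in many lines. In 2022 Os01g0598900 and Os03g0299700 were both absent in 69 lines and both present in 11. For Os06g0551000 these numbers were 68 and 7, and for Os12g0103500 71 and 3. With looser limits of 1 and 0.5 CPM, genes off chromosomes 1 and 3 also reached 90%. Os07g0162450 had the state of Os03g0299700 in 95.7% of classified lines in 2022 and 100% in 2023, and Os05g0232632 in 94.6% and 96.8%. More genes of chromosome 1 had the same state in at least 90%, such as Os01g0377000 (99.0% and 100%) and Os01g0350300 (94.8% and 94.9%). Others there had the opposite state, such as Os01g0509700 in at least 97.9%.

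The closest match was Os01g0380800, whose state agreed in 100% of 97 classified lines in 2022 and 99.0% of 100 in 2023. It ranged from 1.11 to 15.6 CPM in on lines in 2022 (median 9.63) and had 0 counts in all 81 off lines, so the difference was at least 3044-fold, taking 3 counts over the off group as the floor. In 2023 it ranged from 0 to 11.0 CPM in on lines (median 7.54) and reached 0.0790 CPM in 1 off line, with 0 counts in the other 80. A single on line, J2_270, differed from the rest, with 1.11 CPM in 2022 and 0 in 2023, while its Os03g0299700 put it among the on lines in both years.

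Os01g0391100 and Os01g0508300 gave the opposite picture, present in off and absent in on lines. Os01g0391100 ranged from 0 to 2.32 CPM in on lines (median 0.0369) and from 5.03 to 15.0 CPM in off lines (median 9.01) in 2022, and from 0 to 0.0897 CPM (median 0) against 3.51 to 10.2 CPM (median 6.46) in 2023. Os01g0508300 had 0 counts in 15 of 16 on lines in 2022 and in all 16 in 2023, and in off lines it ranged from 5.33 to 11.1 CPM (median 7.94) and from 2.93 to 9.02 CPM (median 5.88). In 2023 both genes had the opposite state of Os03g0299700 in 100% of lines.

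Fewer lines went against their group near Os01g0380800 than at lower locus numbers. Lines were counted where both genes were classified in that year, at 2 CPM or more or under 0.2 CPM, and J2_314 was included. The number that did not have the state usual for their group was 6 in 2022 and 7 in 2023 at Os01g0320700, 7 in each year at Os01g0324400, 7 and 5 at both Os01g0349600 and Os01g0350000, and 6 and 4 at Os01g0353900. It was 3 in each year at Os01g0361000, 5 and 3 at Os01g0366100, 2 in each year at Os01g0373400, 0 and 1 at Os01g0380800, and 2 and 0 at both Os01g0391100 and Os01g0508300. The 2 lines of 2022 at the last pair of genes were J2_298 and J2_314. Above these, Os01g0520800 agreed in 74.2% and 76.3% of lines. It was present in all 16 on lines in 2022, from 2.49 to 5.22 CPM (median 4.26), but also in part of the off lines, of which 55 had 0 counts.

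The lines that differed did so in steps along the chromosome. The on line J2_389 had the level usual of off lines at all 8 genes from Os01g0320700 to Os01g0373400 in both years, for example 34.5 and 32.7 CPM of Os01g0349600, and the level usual of on lines from Os01g0380800 upward. The on line J2_345 had the other state only at Os01g0320700 and Os01g0324400. Among off lines, J2_326 had the state usual of on lines through Os01g0373400, J2_233 through Os01g0366100, J2_288 through Os01g0353900 and J2_262 through Os01g0350000. Each changed state once along the row and at the same place in both years, apart from values between 0.2 and 2 CPM.

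J2_298 was the exception among on lines, because its state changed between the years. In 2022 it had 16.8 CPM of Os01g0349600, 8.04 CPM of Os01g0350000, 88.0 CPM of Os01g0361000, 2.32 CPM of Os01g0391100 and 6.54 CPM of Os01g0508300, the state usual of off lines. In 2023 it had 0 counts of these genes except 0.199 CPM of Os01g0361000, the state usual of on lines. At Os01g0320700 and Os01g0324400 it had the state usual of off lines in both years. Os01g0380800, which is present in on lines, stood at 4.09 CPM in 2022 and 4.77 CPM in 2023. The line thus held both kinds of transcripts in 2022. Results that rest on this line are given below with and without it.

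**Figure D3:**
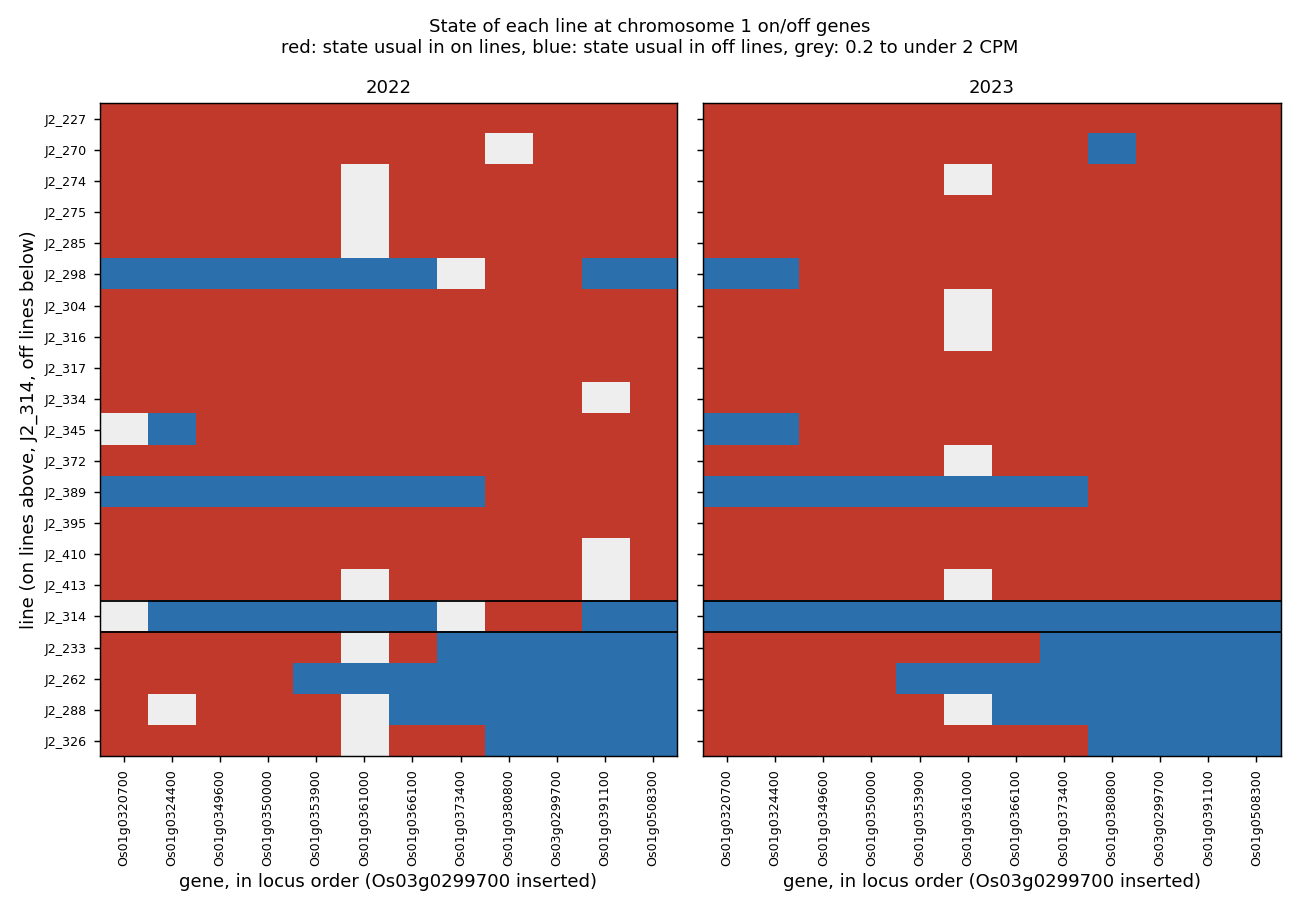
State of each on line, of J2_314 and of the 4 off lines that differ, at the 11 chromosome 1 genes in order of locus number, with Os03g0299700 set between Os01g0380800 and Os01g0391100 by likeness of state alone, for 2022 (left) and 2023 (right). Red is the state usual of on lines, blue the state usual of off lines and grey a value from 0.2 to under 2 CPM. Apart from grey cells, blue blocks of on lines and red blocks of off lines start from the left edge. Exceptions are J2_298 in 2022 and a single blue cell of J2_270 at Os01g0380800 in 2023.

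Among all genes tested in both years, 4 (0.0209%) had on and off lines that did not overlap in either year, and all 4 lay on chromosome 1. In 2 of them (0.0104%) the on lines lay above the off lines, and in the other 2 (0.0104%) below. Os01g0391100 was described above, and its log2 change was -5.49 (SE 0.241) in 2022 and -8.62 (SE 0.212) in 2023. The 2023 value depends on the prior count, because most on lines had 0 counts. Without J2_298 the 2022 value was -6.46. Without it every on line also had 0 counts of Os01g0508300 in 2022. The other 3 were expressed in both groups. They differed in level between the groups rather than in presence.

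Os01g0383900 ranged from 8.21 to 20.2 CPM in on lines (median 11.0) and from 0.865 to 5.75 CPM in off lines (median 2.88) in 2022. In 2023 the ranges were 8.63 to 19.0 CPM (median 12.8) and 1.85 to 6.34 CPM (median 3.28). Every on line was thus above every off line, with a log2 change of 1.99 (SE 0.0979, edgeR BH-adjusted p = 2.15e-33) and 1.91 (SE 0.0793, adjusted p = 1.27e-39).

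Os01g0502800 went the other way, from 4.06 to 9.67 CPM in on lines (median 6.26) against 13.7 to 30.7 CPM in off lines (median 22.1) in 2022. In 2023 it had 3.95 to 7.99 CPM (median 6.34) against 17.6 to 35.4 CPM (median 26.2). The log2 change was -1.84 (SE 0.0899, edgeR BH-adjusted p = 1.58e-33) and -2.15 (SE 0.0745, adjusted p = 2.86e-46), with all on lines below all off lines. Os01g0390300 differed least of the 4, from 23.03 to 39.2 CPM (median 29.8) against 10.9 to 21.5 CPM (median 18.0) in 2022 and from 26.04 to 34.2 CPM (median 30.4) against 11.5 to 24.8 CPM (median 19.7) in 2023. A log2 change of 0.68 (SE 0.0457) and 0.55 (SE 0.0444) was here enough to separate the groups in full.

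Further genes of the stretch were nearly absent from a single group. Os01g0377000 ranged from 0.954 to 5.59 CPM in on lines (median 2.79) and from 0 to 1.17 CPM in off lines (median 0) in 2022, and from 1.78 to 4.27 CPM (median 3.18) against 0 to 0.714 CPM (median 0.0853) in 2023. It was higher in on lines by 4.72 (SE 0.273) and 4.37 (SE 0.231) on the log2 scale. Os01g0509700 had 0 counts in 15 of 16 on lines in 2022 and in all 16 in 2023, while off lines had medians of 2.19 and 2.35 CPM. Os01g0373400 had 0 counts in 14 and 15 of 16 on lines, and off lines had medians of 5.78 and 3.94 CPM. In both years the highest on line of Os01g0373400 was J2_389, with 4.92 and 2.93 CPM.

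Os01g0520180 was absent from every on line in both years but present in only part of the off lines. At least 2 CPM was seen in 32 of 81 off lines in 2022 and in 33 in 2023, up to 8.56 and 8.51 CPM, and 48 off lines had 0 counts in each year. Over the groups it was at least 119-fold lower in on lines in 2022 and at least 112-fold lower in 2023, with 3 counts over the on group as the floor. Its call was lost within columns 1 to 50 and within columns 51 to 100 in both years, where fewer lines were compared. Its fitted log2 change, which depends on the prior count because on lines had no counts, was -7.57 and -7.58 over all lines and -7.91 and -7.52 within columns 51 to 100.

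SALT (Os01g0348900), which encodes a mannose-binding lectin induced by salt stress, lies in the same stretch and was examined after its values had been seen. In 2022 it ranged from 1.49 to 16.5 CPM in on lines (median 9.93) and from 0 to 16.9 CPM in off lines (median 0.606). In 2023 it ranged from 2.15 to 53.1 CPM (median 13.9) against 0 to 35.6 CPM (median 1.49). All 16 on lines lay above the off median in both years, and the log2 change was 2.88 (SE 0.325, edgeR BH-adjusted p = 1.93e-11) and 2.53 (SE 0.331, adjusted p = 4.31e-09).

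In SALT, 8 off lines in 2022 and 22 in 2023 were at or above the lowest on line. The lines that overlapped included those that changed state along the chromosome. The lowest on line was J2_389 in both years. The off lines J2_233, J2_262, J2_288 and J2_326 had 12.5, 16.9, 8.34 and 7.36 CPM in 2022 and 21.9, 35.6, 23.9 and 8.60 CPM in 2023, all far above the off median. With 3 principal components of genes outside chromosome 3 in the fit, the change of SALT was 0.83 and 1.11 and its calls were lost. Os01g0350000, which neighbours SALT, was lower in on lines by log2 changes of -3.40 (SE 0.456) and -3.97 (SE 0.451). HKT1;5 (Os01g0307500), a sodium transporter known for keeping sodium out of rice shoots, lies below the densest part of the stretch and did not pass, with log2 changes of 0.39 (edgeR BH-adjusted p = 0.665) and 0.10 (adjusted p = 0.822).

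Os01g0382000, a locus of the defence list for which no name was kept, was higher in on lines in both years. It ranged from 0.873 to 9.38 CPM in on lines (median 2.91) and from 0 to 17.5 CPM in off lines (median 0.0480) in 2022, and from 0.504 to 13.1 CPM (median 4.87) against 0 to 5.15 CPM (median 0.0778) in 2023. The log2 change was 3.11 (SE 0.453) and 3.24 (SE 0.408), and every on line lay above the off median in both years, although single off lines were as high as on lines. Its call was lost in 2022 within columns 51 to 100, at a log2 change of 3.09.

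**Figure D4:**
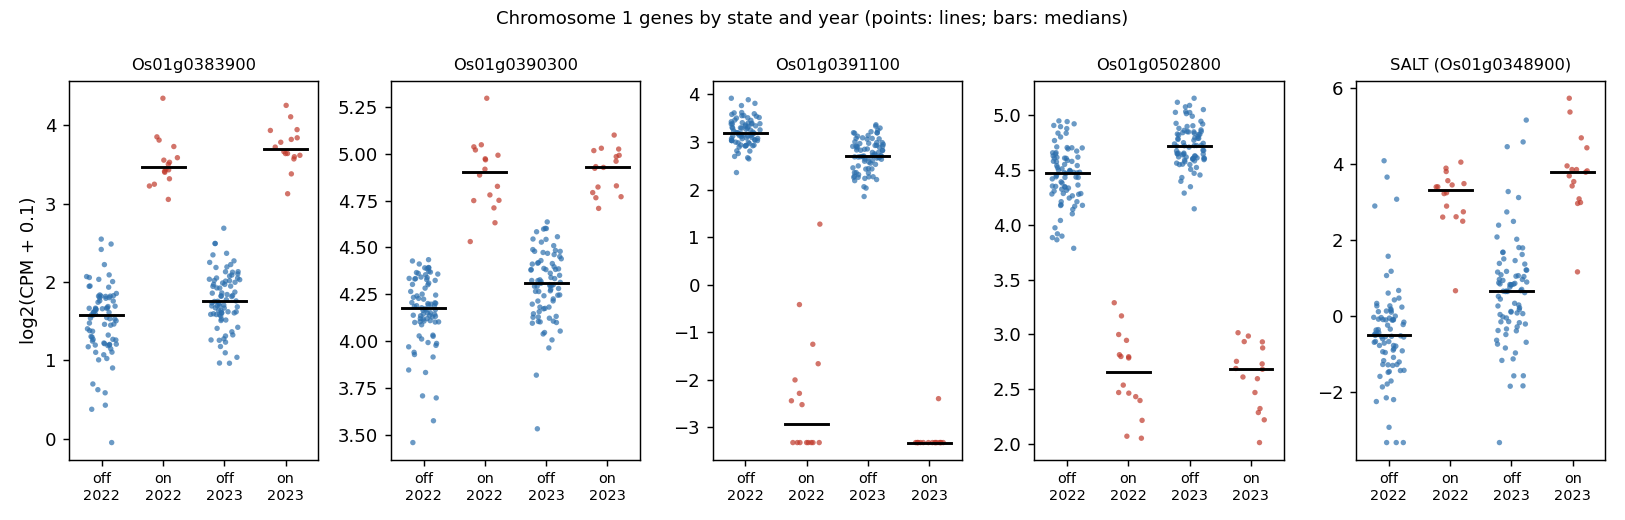
Levels of 5 chromosome 1 genes as log2(CPM + 0.1) in off lines (blue, n = 81) and on lines (red, n = 16) in each year, with points for lines and bars for medians. The first 4 genes do not overlap between the groups in either year. In SALT, 8 off lines in 2022 and 22 in 2023 were at or above the lowest on line. Each panel has its own vertical scale.

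Off chromosome 1, 11 of 16429 genes were called in both years, or 0.0670%. The clearest was Os05g0409400 of chromosome 5. It ranged from 1.19 to 24.6 CPM in on lines (median 20.4) and from 0.104 to 22.5 CPM in off lines (median 0.846) in 2022, and from 1.29 to 26.6 CPM (median 23.3) against 0 to 26.6 CPM (median 0.815) in 2023. The log2 change was 3.69 (SE 0.277, edgeR BH-adjusted p = 1.38e-20) and 3.83 (SE 0.298, adjusted p = 1.14e-19).

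The lines of Os05g0409400 that went against their group were lines named above for chromosome 1. The low on line was J2_389, with 1.19 and 1.29 CPM. The off lines J2_233 and J2_326 were high, with 22.5 and 19.6 CPM in 2022 and 23.3 and 26.6 CPM in 2023. With a limit of 5 CPM for Os05g0409400, set after its values were seen, and of 2 CPM for the chromosome 1 genes, its state differed from that of Os01g0366100 in 2 lines in 2022 and in 0 in 2023, and from that of Os01g0373400 in 1 and 2 lines. From Os01g0380800 it differed in 4 lines in each year. With 3 principal components of genes outside chromosome 3 in the fit its 2023 change was 1.62 and not called. From Os01g0353900 and Os01g0361000 it differed in 3 lines in 2022 and 1 in 2023. Among the chromosome 1 genes compared, Os01g0373400 thus differed least in 2022 and Os01g0366100 in 2023. These genes had been chosen by their agreement with Os03g0299700, and genes of chromosome 5 were not compared in this way.

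Os03g0409600 behaved alike with a locus on chromosome 3. It ranged from 0 to 7.18 CPM in on lines (median 3.76) and from 0 to 5.21 CPM in off lines (median 0) in 2022, and from 0 to 3.83 CPM (median 3.00) against 0 to 5.62 CPM (median 0) in 2023. The log2 change was 4.02 (SE 0.419) and 3.86 (SE 0.414). Again J2_389 was the on line without it, with 0 counts in both years, and J2_233, J2_288 and J2_326 were high off lines, with 4.43, 5.21 and 1.25 CPM in 2022 and 1.43, 5.62 and 2.72 CPM in 2023. With the components outside chromosome 3 its changes were 0.76 and 0.38, and the calls were lost. Among the same chromosome 1 genes, its state differed least from that of Os01g0353900 and Os01g0361000, in 2 lines in 2022 and 5 in 2023. The limit was 2 CPM for both genes, and other genes of chromosome 3 were not compared in this way.

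Os10g0213100 and Os08g0300100 differed in level and not in presence. Os10g0213100 had 12.7 to 17.6 CPM in on lines (median 15.5) and 18.6 to 34.3 CPM in off lines (median 24.5) in 2023, without overlap. In 2022 it had 11.6 to 23.4 CPM (median 14.2) against 14.5 to 34.4 CPM (median 23.9), and the highest on line was J2_298. The log2 change was -0.68 (SE 0.0667) and -0.73 (SE 0.0412). Os08g0300100 had medians of 21.0 CPM in on and 14.1 CPM in off lines in 2022 and of 20.8 and 13.9 CPM in 2023, a log2 change of 0.50 in each year (SE 0.0660 and 0.0648), with all 16 on lines above the off median.

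A trio of chromosome 9 genes was absent from on lines and present in part of the off lines. Os09g0325300, Os09g0328066 and Os09g0328800 had 0 counts in all 16 on lines in both years. At least 2 CPM was seen in 27, 28 and 26 of 81 off lines in 2022 and in 27, 25 and 28 in 2023. Os09g0325300 was at least 432-fold lower in 2022 and at least 404.1-fold lower in 2023, Os09g0328800 at least 126-fold and 113-fold, and Os09g0328066 at least 76.6-fold and 59.5-fold. Most off lines also lacked these genes, with 53 or 54 of 81 at 0 counts. The calls of all 3 were lost within columns 1 to 50 and within columns 51 to 100, where fewer lines were compared. Fitted log2 changes, which depend on the prior count here, were -9.40, -7.07 and -7.53 over all lines of 2022 and -9.97, -7.51 and -8.19 within columns 51 to 100.

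The remaining 4 genes off chromosome 1 moved by 2-fold at most. Os06g0683100 was higher in on lines by 0.87 (SE 0.163) and 1.00 (SE 0.276), Os03g0610800 by 0.35 (SE 0.0821) and 0.37 (SE 0.0890) and Os12g0609050 by 0.27 (SE 0.0659) and 0.25 (SE 0.0568). Os02g0119400 was lower, at -0.20 (SE 0.0499) and -0.14 (SE 0.0352). The ranges of on and off lines overlapped for each of the 4, and each call was lost in both years within columns 51 to 100, at changes of 0.92 and 0.95 for Os06g0683100, 0.20 and 0.20 for Os03g0610800, 0.25 and 0.23 for Os12g0609050 and -0.08 and -0.14 for Os02g0119400.

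**Figure D5:**
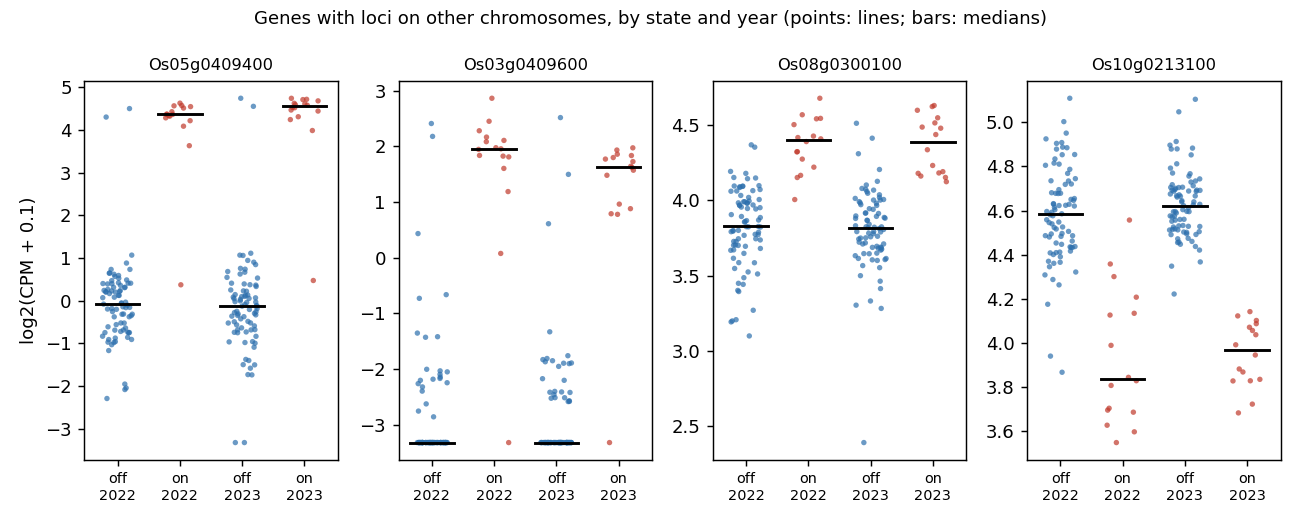
Levels of 4 genes called in both years whose loci lie on chromosomes 5, 3, 8 and 10, as log2(CPM + 0.1) in off lines (blue, n = 81) and on lines (red, n = 16) in each year, with points for lines and bars for medians. Os05g0409400 and Os03g0409600 show single lines at the level of the other group, and Os10g0213100 separates in 2023; each panel has its own vertical scale.

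Genes of flowering, the circadian clock, nitrogen use and defence were next compared between on and off lines. In none of these lists did a gene with a kept name pass in either year, over 14 flowering, 7 clock, 7 nitrogen and 6 defence genes tested. Of the loci of the defence list without a kept name, Os01g0382000 passed in both years, as given above, and Os01g0194300 in 2023 alone, with a log2 change of 0.33 (SE 0.0952, edgeR BH-adjusted p = 0.0480). Among the genes with a kept name DESeq2 also called 0, and over the 34 different genes 5 in 2022 and 6 in 2023 had an unadjusted p under 0.05. Over all tested genes 0.707% and 1.9% were called and 8.4% and 14.5% had an unadjusted p under 0.05. The median log2 change of the flowering genes was 0.01 in 2022 and -0.08 in 2023, that of the clock genes 0.05 and -0.05, that of the nitrogen genes -0.08 and -0.07 and that of the defence genes -0.12 and 0.17. The median of all tested genes was close to 0 in both years (-0.000761 and 0.00337).

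The florigen gene Hd3a (Os06g0157700) ranged from 0 to 49.3 CPM in on lines and from 0 to 82.7 CPM in off lines in 2022, with a log2 change of -0.19 (SE 0.657) in 2022 and 0.31 (SE 0.652) in 2023. Its SE exceeded its change in both years. GS2 (Os04g0659100), the plastid glutamine synthetase that reassimilates ammonium in leaves, had the smallest adjusted p of the nitrogen list. Its median was 2401 CPM in on and 2793 CPM in off lines in 2022 and 2832 and 3140 CPM in 2023, and its log2 change was -0.17 (SE 0.0565, edgeR BH-adjusted p = 0.243) and -0.19 (SE 0.0615, adjusted p = 0.0787). OsPRR1 (Os02g0618200), an evening pseudo-response regulator of the clock, had a median of 60.0 CPM in on and 43.9 CPM in off lines in 2022 and of 55.3 and 42.4 CPM in 2023, without passing (edgeR BH-adjusted p = 0.385 and 0.294).

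Of 7 named genes of the window tested, 0 passed by edgeR or DESeq2 in either year, and 2 in 2022 and 1 in 2023 had an unadjusted p under 0.05. With 0.707% and 1.9% of all tested genes called, 0 calls among 7 genes lies near the background. At an unadjusted p under 0.05 the shares of all tested genes were 8.4% and 14.5%. PHYB (Os03g0309200), the red light receptor phytochrome B, had medians of 94.4 CPM in on and 88.4 CPM in off lines in 2022 and of 89.0 and 82.5 CPM in 2023. The log2 changes of PHYB were 0.08 (SE 0.0816) and 0.04 (SE 0.0692). OsPRR73 (Os03g0284100), a pseudo-response regulator of the clock, had changes of -0.05 and -0.08, and GS1;2 (Os03g0223400), a cytosolic glutamine synthetase, of -0.24 and 0.03. Over all 7 the changes lay between -0.39 and 0.28 in 2022 and between -0.08 and 0.04 in 2023.

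The year-by-state term asked whether the difference between on and off lines changed from 2022 to 2023. It was called for 2 of 20686 genes (0.00967%), Os01g0391100 and Os01g0508300, whose differences (on minus off) shifted from 2022 to 2023 by -3.23 (SE 0.520, edgeR BH-adjusted p = 0.000750) and -4.52 (SE 0.709, adjusted p = 3.03e-05) on the log2 scale. J2_298 had 2.32 and 6.54 CPM of these genes in 2022 and 0 in 2023. Both shifts depend on the prior count, because on lines had almost no counts of these genes in 2023. Both libraries of a line entered this test as independent. Without J2_298 the term was called for 0 genes by edgeR, with 528 at an unadjusted p under 0.05, and the values were -2.22 and 0.32 (adjusted p = 1 for both).

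J2_314, which changed sides in Os03g0299700 between the years, changed sides at Os01g0380800 too, but at Os01g0391100 and Os01g0508300 it had the state usual of off lines in both years. In 2022 it had 6.03 CPM of Os01g0380800, 4.96 CPM of Os01g0391100, 3.54 CPM of Os01g0508300 and 10.3 CPM of Os01g0502800. The last value lay between the highest on line (9.67 CPM) and the lowest off line (13.7 CPM), and at 3 of the 4 non-overlapping genes it lay outside the ranges of both groups. In 2023 it had 0, 7.23, 5.52 and 30.2 CPM of the same genes, at the level of the off lines. Of Os05g0409400 it had 8.86 CPM in 2022 and 0.526 CPM in 2023, and of Os03g0409600 2.13 CPM and 0. J2_221 and J2_273 lay with the off lines at Os01g0380800, with 0 counts in both years, and at Os01g0502800, with 25.3 and 26.6 CPM in 2022 and 29.7 and 34.9 CPM in 2023.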

How the data were processed

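Leaf RNA of 100 lines was sequenced in each of 2 years from NEBNext Ultra II Directional libraries, per the labels. The authors deposited raw counts per gene, 1 table a year, for 37849 identifiers. The submitters' processing notes name build IRGSP-1.0. How reads were aligned and counted, and with which use of strand, is not given in the sources used here, so overlapping genes on opposite strands cannot be told apart. All 200 columns matched a sample and 0 did not.

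From these counts, CPM were computed and each year was fitted alone with edgeR 4.0.16 (R 4.3.3): filterByExpr by state, TMM factors, quasi-likelihood F test of on against off lines, BH adjustment over all tested genes, called at an adjusted p under 0.05. Os03g0299700 was left out of counts. P-values of the tests within a year measure the spread between lines, each with 1 library. A year-by-state term was fitted over both years, and in an alternative with the line as replicate block. A line number marks the same line in both years, so without that block both libraries of a line entered as independent. The adjusted p-values given for the term come from the fit without the block. Other alternatives were DESeq2 1.42.0, other size factors, no filter, stricter and looser states, column position, 3 principal components, and leaving out libraries. On simulated counts the test found 96% of 2-fold and 98% of 4-fold changes in 2022 and 89% and 99% in 2023. It also called 14 and 17 unchanged genes there. Genes were drawn independently, without the linked stretches of these lines, so these shares need not hold for the real counts.

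The members and lists were chosen with earlier results of these data known. Gene names were taken from general knowledge and kept for 46 of 56 pairs, those where the RefSeq table of ASM3414082v1 lists the symbol once on the chromosome of the locus and in the order of the locus numbers. It does not list 9 of the symbols, and 1 lay on another chromosome or was not unique. Among loci whose name was not kept, Os01g0382000 passed in both years and Os01g0194300 in 2023 alone. Named genes were the called genes with the largest change in both years (up to 20 in the window, 10 elsewhere), on/off genes of highest agreement, 4 neighbours on each side, list members and interaction calls. The non-overlapping genes, those called off chromosome 1, further on/off genes of chromosome 1 and the salt genes were chosen after their values were seen.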

Additional observations from a re-analysis of the deposited data

Results flagged for a closer look

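The difference between on and off lines was not the same in 2022 and 2023 for 2 chromosome 1 genes, by the test of the year-by-state term. For Os01g0391100 the term was -3.23 on the log2 scale (edgeR BH-adjusted p = 0.000750) and for Os01g0508300 it was -4.52 (adjusted p = 3.03e-05). With the line as replicate block the terms were -3.27 and -4.52, and 2 genes were called. All these terms depend on the prior count, because on lines had almost no counts of either gene in 2023. Without J2_298 the terms were -2.22 and 0.32, and 0 genes were called. In Os01g0391100, 8 of 16 on lines had 0 counts in 2022 and 15 had 0 in 2023, so low counts besides those of J2_298 also differed between the years.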

How the results depend on the processing

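In 2022 the 0 calls of the window became 1 with 3 principal components outside chromosomes 1 and 3. The 136 calls elsewhere became 66 with 3 components outside chromosome 3, 79 and 89 within columns 1 to 50 and 51 to 100, and 207 without a filter. The 113 on chromosome 1 became 48 with components outside chromosome 3 and 71 within columns 1 to 50. The 19 off chromosomes 1 and 3 became 32 with components outside both, 29 with DESeq2, 29 with column position, 8 and 5 within the column sets, 43 without a filter and 12 without the 30 deepest libraries. In 2023 the 11 of the window became 0 with components outside chromosome 3, 17 with DESeq2 and 4 and 1 within the column sets. The calls elsewhere became 95 with components outside chromosome 3 and 141 and 122 within the column sets. The 170 on chromosome 1 became 60, 88 and 103, and the 174 off chromosomes 1 and 3 became 34, 45 and 16, in the same order, and 104 with components outside both. The column sets hold fewer lines. All components were drawn only from genes present in some lines and absent in others. Those outside chromosome 3 included the genes of chromosome 1 that split the lines as Os03g0299700 did. With the components outside chromosome 3 the SALT changes fell to 0.83 and 1.11 and lost their calls. Both changes of Os03g0409600 (0.76 and 0.38) and the 2023 change of Os05g0409400 (1.62) lost theirs too. The cause of the other shifts was not tested. The 2 interaction calls stayed 2 with the replicate block and became 0 without J2_298. No called result changed direction. The components outside both chromosomes and the fits without J2_298 were added after the data had been seen.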
